A study of Gossypium hirsutum with 89 samples.

Results

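Fibre collected 6 days post anthesis (dpa) was compared among 5 genotypes of upland cotton, Gossypium hirsutum. The arrays are those titled for 6 dpa fibre, 3 biological replicates in each of JKC 725, JKC 703, JKC 777, JKC 783 and JKC 737, and they are 15 of the 89 arrays of the series. Per the labels, JKC 725 and JKC 777 have superior fibre traits, and JKC 703, JKC 783 and JKC 737 are inferior to them. All plants were grown untreated in an open field, flowers were tagged at anthesis, and RNA came from fibre alone, without the ovule. The same genotypes were sampled at 0 dpa as whole ovules and at 9, 12, 19 and 25 dpa as fibre, with 3 arrays each except JKC 783 at 25 dpa, which had 2. How genotypes were kept apart in the field, and whether harvests of 1 day shared a date, is not given in the sources used here. The comparison of JKC 725 and JKC 703 (6 arrays) with JKC 777, JKC 783 and JKC 737 (9 arrays) was chosen from earlier results of these same data, so it is given as a description with no test.

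A cotton fibre is a single cell of the seed coat epidermis. It first elongates within a thin primary wall that is loosened by expansins and xyloglucan endotransglucosylases and stretched by turgor, and it later lays down a thick secondary wall of almost pure cellulose, made by cellulose synthase complexes that move along cortical microtubules. Tubulin, cellulose synthase and NAC transcription factor genes are known to change as fibres pass from elongation to wall thickening.

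The arrays hold 24132 probe sets, of which 18889 passed a filter on low signal. Values are the authors' MAS5 signals, a scaled brightness with no unit, and changes are differences of log2(signal + 4.38). Median signals of the 15 arrays lay between 67.5 and 93.8. The number of arrays, 3 a genotype, limits the precision. A readable gene name could be given to 303 tested probe sets of 236 genes, 1.6% of those tested, so most of what differed carries no name here. Pearson correlations of log2 values were 0.965 to 0.984 between replicates of a genotype. They were 0.959 to 0.975 between different genotypes within JKC 725 and 703 or within JKC 777, 783 and 737, and 0.910 to 0.949 across these sides. On the first principal component, which held 45.6% of the variance of the 15 arrays, the 6 arrays of JKC 725 and 703 scored from 55.4 to 69.2 and the other 9 from -57.1 to -24.9.

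Some arrays of another day go against their label. On 3 probe sets described below, all 33 other arrays of the superior genotypes were low and all 53 of the inferior ones high. JKC 725 at 25 dpa had signals of 8.31, 752 and 1295 on Gra.822.2.S1_x_at, so that 2 of its 3 arrays fell in the range of the inferior genotypes. These arrays enter the 6 dpa tests only through the estimate of spread. Without the 3 arrays labelled JKC 725 at 25 dpa, a setting added after these values were seen, the counts given below were close, such as 5267 for 5265.

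The fibre identity of the samples was checked on known fibre transcripts. E6 and H6L, both abundant fibre transcripts, had mean signals of 9934 to 14365 and 8379 to 11231 across the genotypes, against 2254 to 2856 and 134.2 to 222.6 in the ovules. The fibre markers EXPA1, myb109 and a dimmer probe set of LTP3, a lipid transfer protein gene, were also brighter than in the ovules. The other LTP3 probe set was already at 5441 to 6450 in the ovules, against 8163 to 17360 in fibre. HOX3 separated the tissues poorly, and in JKC 783 it was at 1050 in the ovules and 1067 in fibre. Of 5 pollen and flower probe sets 1 was called, MADS-9, and the list summed to 17845 and 18729 in JKC 725 and 703 and to between 20254 and 21821 in the others. Its 4 MADS-box genes had means of 298 to 12042, while PG, a pollen polygalacturonase in cotton, was near 0 at 0.684 to 2.33. Seed storage genes were divided. LegA-C94 was at 2.44 to 10.5 and vicB_At at 2.19 to 9.14. LegB-C134 was at 1.03 to 2.73 on 1 probe set but at 323 to 573 on another, against 789 to 943 in the ovules. The 7 fibre marker probe sets summed to between 41239 in JKC 725 and 56426 in JKC 737, and 1 of the 7 was called, the brighter one of LTP3. That call, on a range of 1.08, was lost under quantile normalization (range 0.78) and without JKC 737 replicate 3 (range 0.97). The 2 histone probe sets HIS2B and HIS3, markers of dividing cells, summed to 8209 and 8792 in JKC 725 and 703 and to between 12964 and 13203 in the others. Of 7 seed and embryo probe sets 2 were called, Lea5-D higher and Lea14-A lower in JKC 725 and 703, a share near the 27.9% of all probe sets called by the F test described below. The Lea14-A call was lost without any of 5 single arrays (adjusted p from 0.0552 to 0.121). The list summed to 3312 and 3626 in JKC 725 and 703 against 1473 to 2329. In these bulk samples, fewer cells of a type and less RNA per cell cannot be told apart, and the part of the histone and seed markers in the differences below was not tested. No photosynthetic gene carried a name.

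Differences among the 5 genotypes were first tested without any division, by the F test of limma over the genotype means. A probe set was called where its adjusted p was under 0.05 and its genotype means spanned at least 1 on the log2 scale. By this measure 5265 probe sets were called, 27.9% of those tested. Among nameable probe sets 83 of 303 were called, or 27.4%, which is close to that background. The largest range among nameable genes was that of CelA1, a cellulose synthase catalytic subunit gene known for secondary wall cellulose in cotton, at 7.62 (adjusted p = 2.91e-20). Taking 1 probe set per gene, it was followed by an alpha-tubulin probe set of TUA10 at 5.48 (adjusted p = 1.33e-20) and by WRKY24, a WRKY transcription factor gene, at 5.22 (adjusted p = 1.64e-06). The ranges of CelA1 and WRKY24 reach down to signals under the filter's level of 40.4, where values are imprecise. The other 7 with the largest ranges were pox, EXPA3D, Aux6, POX5, CPA-FAS-2, ACO1 and NAC5, at 3.75 to 4.27. In 9 of these 10 the arrays of JKC 725 and 703 did not overlap the other 9 arrays, and NAC5 was the exception. Of all tested probe sets, 9.1% did not overlap and differed by at least 1. The 10 were ranked by their range on these same arrays, so their split is no separate evidence for the division.

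On the side comparison, 1718 probe sets, or 9.1%, had 6 arrays of JKC 725 and 703 that did not overlap the other 9 and means that differed by at least 1. Of these 920 (4.87%) were higher in JKC 725 and 703 and 798 (4.22%) lower. The probe sets nearest to that limit differed by 1.00 inside it and by -0.9996 outside it, and 4244 did not overlap at any size. With single genotypes, 3 arrays against 3, the share that did not overlap and differed by at least 1 was 3.85% for JKC 725 against 703, 3.55% for 777 against 783, 3% for 777 against 737 and 2.27% for 783 against 737. Across the sides it was 15%, 17.7% and 18.4% for JKC 725 against JKC 777, 783 and 737, and 12.3%, 16.6% and 16.2% for JKC 703 against them. Of nameable probe sets, 26 were higher and 10 lower, from 32 genes.

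CelA1 showed the largest nameable difference. Its signal ran from 2173 to 5176 with a median of 3395 on the arrays of JKC 725 and 703, and from 6.65 to 39.99 with a median of 20.0 on the others. All 9 of the latter lay under the filter's level of 40.4, so with such signals set to 40.4 the level was at least 82.7-fold higher in JKC 725 and 703. The fitted difference was +7.19 ± 0.43 (SE from limma). A second CelA1 probe set was at or near that level in every genotype, with means of 30.2 to 57.5, and was not called. In JKC 777, 783 and 737 the first probe set reached mean signals of 138 to 380 at 9 dpa and 3329 to 3920 at 12 dpa, a level JKC 725 and 703 already had at 6 dpa (means of 3523 and 3442).

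Tubulin genes encode the subunits of microtubules, and 3 of 8 tubulin probe sets were called in the F test, against 27.9% of all, each of them higher in JKC 725 and 703. Of the 5265 probe sets called in all, 2436 were higher in JKC 725 and 703 and 2829 lower. The median difference of the tubulin list was +0.46, against -0.08 for all probe sets tested. TUA10 had signals of 4194 to 7340 (median 7054) on the probe set with the larger range against 39.0 to 667 (median 228), without overlap. The difference was +4.99 ± 0.29, and +4.99 ± 0.26 on another probe set listed under the same gene. The remaining one had means of 9239.5 to 11113 in all genotypes and a difference of -0.17, so the 3 probe sets disagree. All 3 have IDs ending in x_at, a class of probe set that may hybridise with several related transcripts, so which tubulin genes they measured cannot be told apart. BTub1, a beta-tubulin gene, ran from 2110 to 4746 (median 3663) against 225 to 1605 (median 507), a difference of +2.62 ± 0.22. The remaining 4 probe sets, of TUA6, TubA2, BTub3 and BTub4, had ranges of 0.39 to 0.89 and were not called. None of 4 actin cytoskeleton probe sets was called, ACT1 among them with means of 11223 to 13614.

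**Figure D1:**
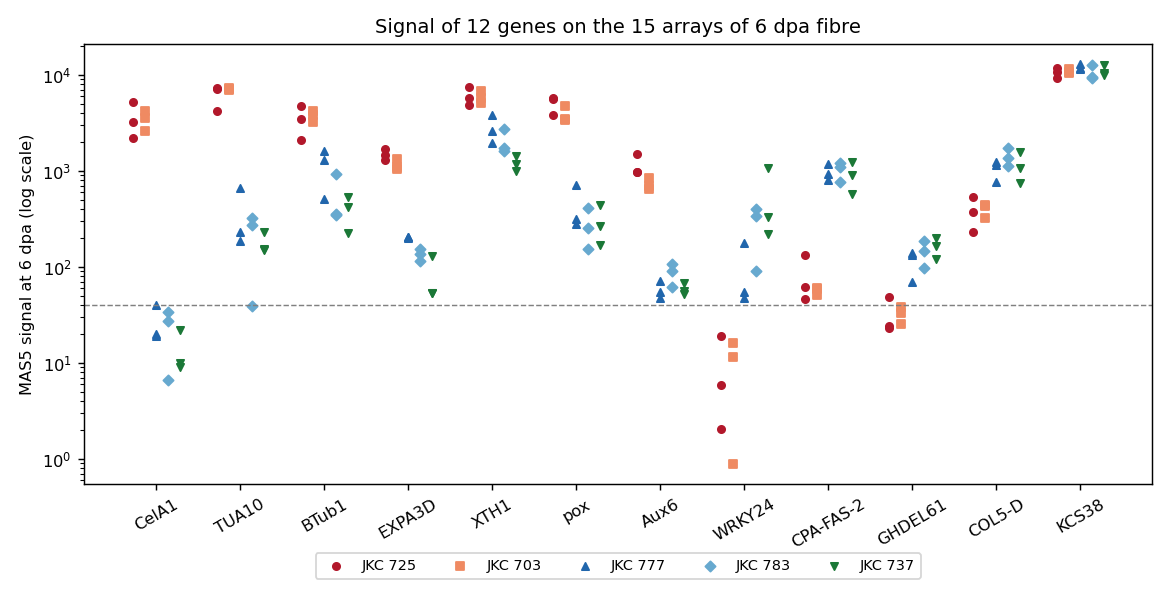
MAS5 signal (log scale) of 12 genes on each of the 15 arrays of 6 dpa fibre, with 3 points per genotype and a dashed line at the filter level of 40.4. The arrays of JKC 725 and 703 lie above all others for CelA1 to Aux6 and below them for WRKY24 to COL5-D, while the bright KCS38 probe set overlaps among all genotypes.

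Genes that loosen or remodel the primary wall were divided. Among 7 expansin probe sets 3 were called, against 27.9% of all probe sets, 2 of them for EXPA3D, an alpha-expansin gene. On the first its signals were 1047 to 1672 (median 1301) against 52.7 to 204 (median 136), a difference of +3.33 ± 0.26 with no overlap. The second EXPA3D probe set differed by +2.76 ± 0.30, and in the ovules it was already at 1566 and 2244 in JKC 725 and 703 and at 609 to 873 in the others. EXPA1, the brightest expansin with means of 6439 to 8569, was not called, at +0.14 ± 0.15. Of 5 xyloglucan endotransglucosylase probe sets 3 were called, beside the same 27.9%. XTH1 was at 4839 to 7385 (median 5762) against 989 to 3831 (median 1731) and differed by +1.66 ± 0.21, while its second and brighter probe set differed by +0.76 ± 0.25 and was not called. A gene listed as XTH lay lower at -1.30 ± 0.35 on a probe set with signals of 2.72 to 57.8. Its brighter probe set was at 2644 to 3507 against 4619 to 6720, without overlap, and at -0.82 its range of 0.98 was under that needed for a call. Pel, a pectate lyase gene, was not called in the F test (adjusted p = 0.831), with means of 4214 to 5751.

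Fasciclin-like arabinogalactan proteins are cell surface glycoproteins, and 7 of their 17 probe sets were called against 27.9% of all, 4 higher and 3 lower in JKC 725 and 703, with a list median of -0.18. FLA14 differed by +1.83 ± 0.20 on a probe set with signals of 666 to 817 against 85.0 to 366. A brighter probe set listed for FLA14 was at -0.39 and not called. FLA4 was at 6696 to 8947 against 1097 to 5926, a difference of +1.05 ± 0.17. FLA12 was lower, at 672 to 1587 (median 1147) against 2031 to 2714 (median 2310), by -1.12 ± 0.21. Sucrose cleavage, which supplies sugar for wall synthesis, had 2 of 4 probe sets called, beside 27.9% of all. SusA1, a sucrose synthase gene, differed by +1.68 ± 0.32 on 1 probe set and susC, another, by +1.53 ± 0.15, both with an overlap of arrays. A second SusA1 probe set was at +0.10 and not called. Sus1, the brightest, was slightly lower without overlap at -0.47 ± 0.09, under the range needed for a call.

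**Figure D2:**
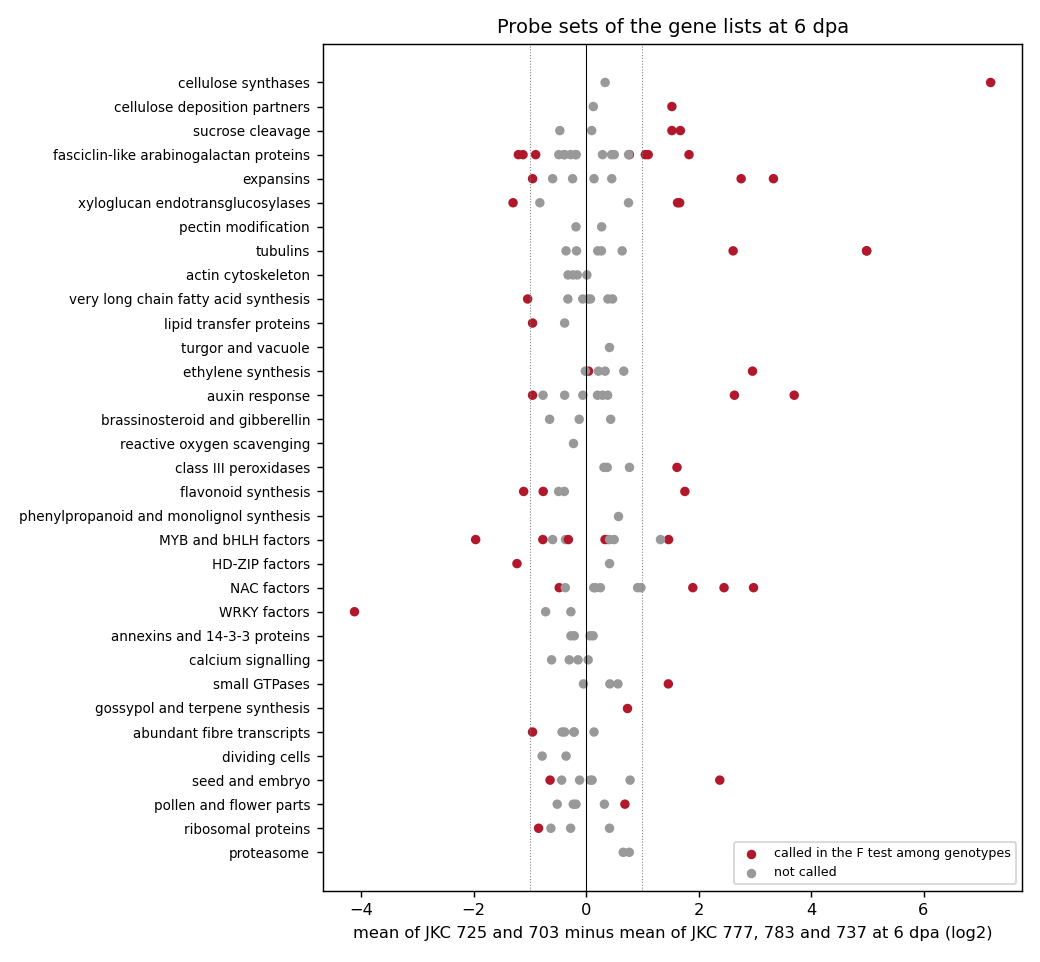
Difference of the mean of JKC 725 and 703 from the mean of JKC 777, 783 and 737 at 6 dpa (log2) for every tested probe set of the gene lists, 1 point per probe set, red where the F test among genotypes was called. CelA1 at +7.19 and TUA10 at +4.99 lie farthest to the right and WRKY24 at -4.12 farthest to the left, and most lists have points near 0.

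Among lipid genes, 2 of 3 cyclopropane fatty acid synthase genes were lower by at least 1 without overlap, beside 4.22% of all probe sets. The 3 genes are on no list, and these 2 were named for their side differences. CPA-FAS-2, a cyclopropane fatty acid synthase gene, was at 46.6 to 131 (median 59.2) in JKC 725 and 703 and at 576 to 1238 (median 936) in the others. The difference was -3.79 ± 0.40, which is 13.9-fold lower in JKC 725 and 703. CPA-FAS-1 was also lower, by -1.78 ± 0.35, with signals of 76.8 to 109 against 183 to 621. CPA-FAS-3 was not called in the F test and had means of 45.9 to 71.6. Ketoacyl-CoA synthases start each round of very long chain fatty acid synthesis, and 1 of 7 probe sets of that list was called, beside 27.9% of all, with a list median of +0.03. It was a KCS38 probe set at 229 to 435 against 510 to 874 (-1.04 ± 0.11), while the brightest KCS38 probe set, with means of 10469 to 12033, was at -0.06 ± 0.17. LTP3 was lower on its brighter probe set, at 7421 to 9265 against 13646 to 20286, a difference of -0.95 ± 0.14 that is without overlap but under 1.

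Hormone genes were each represented by a few probe sets. Aux6 and Aux2, on the auxin response list, were among the largest differences. Aux6 was at 651 to 1505 (median 904) against 46.9 to 106 (median 61.5), which is +3.70 ± 0.19. Aux2 was at 1737 to 4112 (median 2509) against 263 to 616 (median 377), or +2.64 ± 0.20. Aux3 and the 3 probe sets of Aux4 were not called, and ARF1, an auxin response factor gene, was lower at -0.77 ± 0.07 without overlap but under the range for a call. The other called member of the 9 was LTP3, which matches that list by an older synonym. In ethylene synthesis 2 of 6 were called, a share near the 27.9% of all probe sets. A probe set listed as ACO1, a symbol of ACC oxidase, was at 1773 to 4123 against 108 to 1190 (+2.96 ± 0.57), while the other ACO1 probe set was at +0.34. ACS3, an ACC synthase gene, was called on its range of 1.04 (adjusted p = 0.0496), with a side difference of +0.04, and that call was lost without filter and under most of the single arrays left out. None of the 3 probe sets of the brassinosteroid and gibberellin list was called.

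Transcription factors moved in both directions. In the list of MYB and bHLH factors 5 of 11 probe sets were called, against 27.9% of all, 2 higher and 3 lower in JKC 725 and 703. Of 3 WRKY probe sets 1 was called, a share near that background, and those of WRKY15 were not. WRKY24 was at 0.878 to 19.0 in JKC 725 and 703, all under the filter level, and at 47.6 to 1080 in the others, with a difference of -4.12 ± 0.63. With signals under 40.4 set to 40.4 it was at least 4.87-fold lower in JKC 725 and 703. GHDEL61, a bHLH factor gene, was at 23.2 to 48.7 against 69.0 to 201 (-1.96 ± 0.32). COL5-D, a CONSTANS-like gene, was at 232 to 535 against 739 to 1717 (-1.60 ± 0.19). The 2 probe sets of ERF9, an ethylene response factor gene, differed by -2.07 ± 0.38 and -1.88 ± 0.34, but no array of JKC 725 or 703 and at most 2 of the others passed 40.4.

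NAC factors include switches of secondary wall formation in Arabidopsis, NST3 among them, and 4 of 10 NAC probe sets were called, against 27.9% of all. One nst3 probe set was at 27.8 to 68.5 against 0.368 to 8.46 (+2.45 ± 0.27). A second differed by +1.90 ± 0.26 and the other, with means of 3.63 to 7.07, was not called, so nst3 lay near the filter level of 40.4 in JKC 725 and 703 on these 2 probe sets, with 4 and 2 of the 6 arrays under it, and under it on all arrays of the others. On the first of them JKC 725 and 703 reached means of 338 and 283 at 9 dpa, when the others were at 7.72 to 10.9. NAC5 was at 166 to 840 against 18.3 to 221 and overlapped, with a difference of +2.98 ± 0.72. HOX3, an HD-ZIP factor known to promote fibre elongation in cotton, was bright in all genotypes and not called on its range of 0.95. The fibre factor gene myb109 and GHTTG1 were not called either, at +0.50 and +0.39.

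Further named genes had other roles. pox, listed under a peroxidase symbol, was at 3383 to 5785 (median 4248) against 154 to 709 (median 279), a difference of +3.83 ± 0.21. POX5, listed likewise, was at 44.7 to 250 against 0.918 to 20.1, which is at least 2.66-fold with low signals set to 40.4. In the list of class III peroxidases 1 of 4 was called, a share near the 27.9% of all, pod5 at +1.62 ± 0.33. Lea5-D, a late embryogenesis abundant gene, was at 1279 to 3173 against 276 to 1065 (+2.38 ± 0.39), and is the seed marker that was higher above. In the ovules it was at 2006 and 2254 in JKC 725 and 703 and at 895 to 2645 in the others. CHS3, a chalcone synthase gene of flavonoid synthesis, was at 398 to 1460 against 139 to 336 (+1.76 ± 0.14), while 2 other chalcone synthase probe sets were called in the F test with side differences of -1.11 and -0.76. Rac13, a small GTPase gene, was at 124 to 223 against 45.3 to 77.2 (+1.46 ± 0.18). rgp1, which encodes a reversibly glycosylated polypeptide, was lower by -1.47 ± 0.25 at signals of 12.4 to 21.8 against 38.9 to 130. Of its 3 other probe sets, 1 was at -1.20 ± 0.16 with overlap and 2 were at +0.09 and -0.11.

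Probe sets with no gene name had differences as large. Ghi.4402.1.A1_s_at was at 4962 to 7275 against 16.2 to 33.3 (+7.80 ± 0.26), or at least 143-fold. Ghi.6277.1.A1_x_at was at 209 to 1422 against 0.499 to 13.6, at least 13.3-fold higher with low signals set to 40.4. It also differed within the side, with means of 1200 in JKC 725 and 248 in JKC 703. Ghi.9720.1.S1_at was at 0.526 to 2.19 against 53.6 to 802, and on the same basis at least 3.89-fold lower in JKC 725 and 703. Ghi.5023.2.S1_a_at was at 10.8 to 27.4 against 277 to 783, at least 12.2-fold lower.

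The 6 dpa profiles were then set beside the other days of the study. Each probe set was centred on its mean over the 30 groups, and Pearson correlations of group means were taken across the 18889 probe sets. These share arrays and are given as a description. JKC 725 and 703 at 6 dpa correlated with each other at 0.71, and JKC 777, 783 and 737 among themselves at 0.775 to 0.831. Across the sides the same-day correlation was 0.211 to 0.332. The profiles of JKC 725 and 703 at 6 dpa correlated more with JKC 777, 783 and 737 at 9 dpa (0.424 to 0.492) than at 6 dpa, and 9 dpa was the best day in 6 of 6 pairings. At 12 dpa the correlation was 0.257 to 0.445, and at 25 dpa -0.457 to -0.230. In the reverse direction, JKC 777, 783 and 737 at 6 dpa correlated with JKC 725 and 703 at 0.344 to 0.512 in the ovules of 0 dpa, which are another tissue, and at -0.331 to -0.093 at 9 dpa. Without centring the correlations across the sides were 0.942 to 0.954 on the same day, and the best day was later than 6 dpa in 6 of 6 pairings and 9 dpa in 4.

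**Figure D3:**
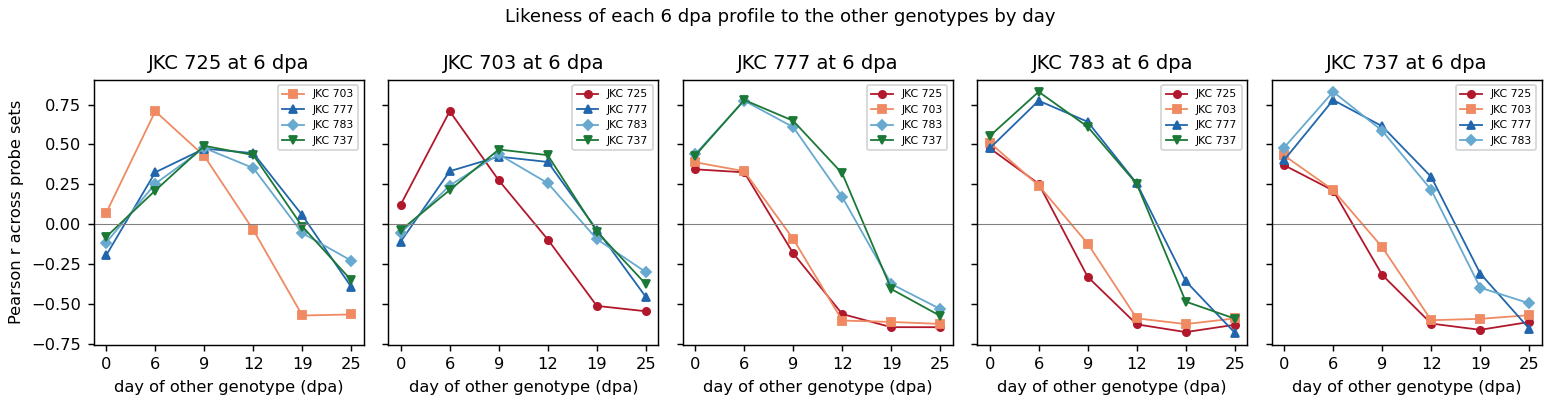
Pearson correlation across 18889 probe sets of each genotype's 6 dpa profile with the profile of every other genotype on every day, after centring each probe set on its mean over the 30 groups. The curves of JKC 777, 783 and 737 peak at 9 dpa in the panels of JKC 725 and 703 (0.424 to 0.492), while within each side all curves peak at 6 dpa.

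Fewer probe sets separated the sides at 9 dpa than at 6 dpa, about as many did at 12 dpa, and more did at 19 and 25 dpa. By the same criterion 919 did so in the ovules (4.87%), 1122 at 9 dpa (5.94%), 1715 at 12 dpa (9.08%), 4100 at 19 dpa (21.7%) and 3175 at 25 dpa (16.8%). The 920 probe sets that were higher in JKC 725 and 703 at 6 dpa had a median difference of +1.48 on that day, +0.86 at 9 dpa, +0.66 at 12 dpa, -0.18 at 19 dpa and -0.34 at 25 dpa. At 9 dpa 43.4% of them were still higher by at least 1, against 6.7% of all probe sets, and at 19 dpa 29% were lower by at least 1, against 11.3% of all. The 798 lower ones had medians of -1.35 at 6 dpa, -0.86 at 9 dpa, -0.72 at 12 dpa and +0.04 at 19 dpa, when the median of all probe sets was itself +0.25. Both sets were chosen by a difference of at least 1 on the 6 dpa arrays, so the size of their 6 dpa medians follows from that choice. Some shrinkage on every other day is built into it, and its part in these values was not tested. The 25 dpa values include the arrays that go against their label. With JKC 703 alone on its side, 4260 probe sets (22.6%) met the criterion at 25 dpa, which is easier to meet with 3 arrays than with 6. The medians of the higher and lower sets were then -0.35 and +0.31.

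**Figure D4:**
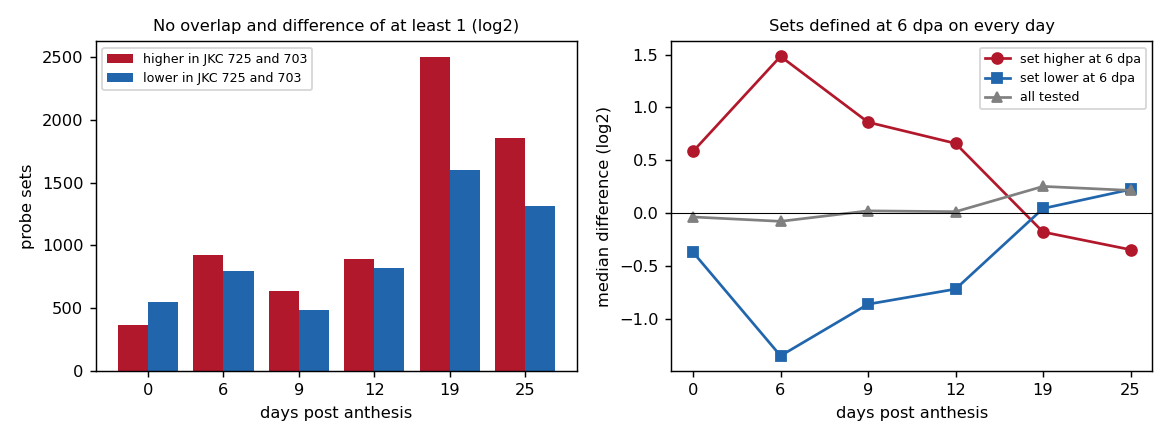
Left, number of probe sets on each day whose arrays of JKC 725 and 703 do not overlap those of JKC 777, 783 and 737 and differ by at least 1 on the log2 scale. Right, median side difference on each day of the 2 sets defined at 6 dpa and of all tested probe sets. The set that was higher at 6 dpa goes from +1.48 on that day, where it was chosen by a difference of at least 1, to -0.34 at 25 dpa.

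How the same probe sets changed later was read on the arrays of the later days, which entered the choice of these sets only through the filter on low signal, although the division itself was chosen with all days known. From 9 to 19 dpa, 34% of the 920 higher probe sets rose by at least 1 in JKC 777, 30.2% in JKC 783 and 35% in JKC 737, against 8.15%, 8.19% and 9.95% of all tested probe sets. In JKC 725 and 703, 31.7% and 40.9% of them fell by at least 1 in that step, against 11.9% and 14.9% of all. Of the 798 lower probe sets, 44.1%, 46.9% and 43.2% fell by at least 1 in JKC 777, 783 and 737, against 10.7%, 11.2% and 8.72% of all. From 9 to 12 dpa, 18.8%, 12.5% and 11.8% of the higher set rose in those genotypes, against 3.34%, 3.27% and 2.53%, and 14.3%, 20.1% and 13.8% of the lower set fell, against 2.2%, 4.67% and 2.02%. In JKC 725 and 703 the higher set had 6.2% and 8.37% that rose in that step, against 3.61% and 4.84%, and 4.24% and 7.5% that fell, against 2.52% and 7.16%. Of the lower set, 15% and 22.8% rose in JKC 725 and 703 from 9 to 19 dpa, near the 15.7% and 21.4% of all probe sets. In the same step 20.7% and 27.9% of the lower set fell in JKC 725 and 703, against 11.9% and 14.9% of all. From 9 to 12 dpa 6.39% and 27.7% of it fell there, against 2.52% and 7.16%, so falls of the lower set were not confined to JKC 777, 783 and 737.

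Single genes followed several courses. EXPA3D, on the first of its probe sets, rose in JKC 725 and 703 from means of 1471 and 1158 at 6 dpa to 3069 and 2645 at 12 dpa and was at 99.2 and 44.6 at 19 dpa. In JKC 777, 783 and 737 it was at 2098 to 4802 at 19 dpa. Aux6 had the same order of days, at 536 and 120 at 19 dpa in JKC 725 and 703 and at 3927 to 6381 in the others. The second EXPA3D probe set did not rise in JKC 725 and 703 but fell from 1668 and 1570 at 6 dpa to 692 and 649 at 12 dpa. At 19 dpa it was at 18.8 and 15.6 there and at 1011 to 3557 in the others. TUA10 stayed high, with means of 9286 to 18519 in all genotypes at 25 dpa, and by 12 dpa the sides had 9937 and 13110 against 7197 to 9512. CPA-FAS-2 started at 2456 to 4733 in the ovules of all 5 genotypes, and at 12 dpa JKC 777, 783 and 737 had reached 20.8 to 75.8, near the 79.6 and 56.3 of JKC 725 and 703 at 6 dpa. WRKY24 was different, since the lowest mean of JKC 725 and 703 over the 6 days was that at 6 dpa. Of the 26 nameable higher probe sets, 13 were still higher by at least 1 at 9 dpa, against 6.7% of all probe sets. At 19 dpa 11 were lower by at least 1, against 11.3% of all, and 10 differed by less. The other 5 were higher by at least 1, a share near the 20.6% of all probe sets.

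**Figure D5:**
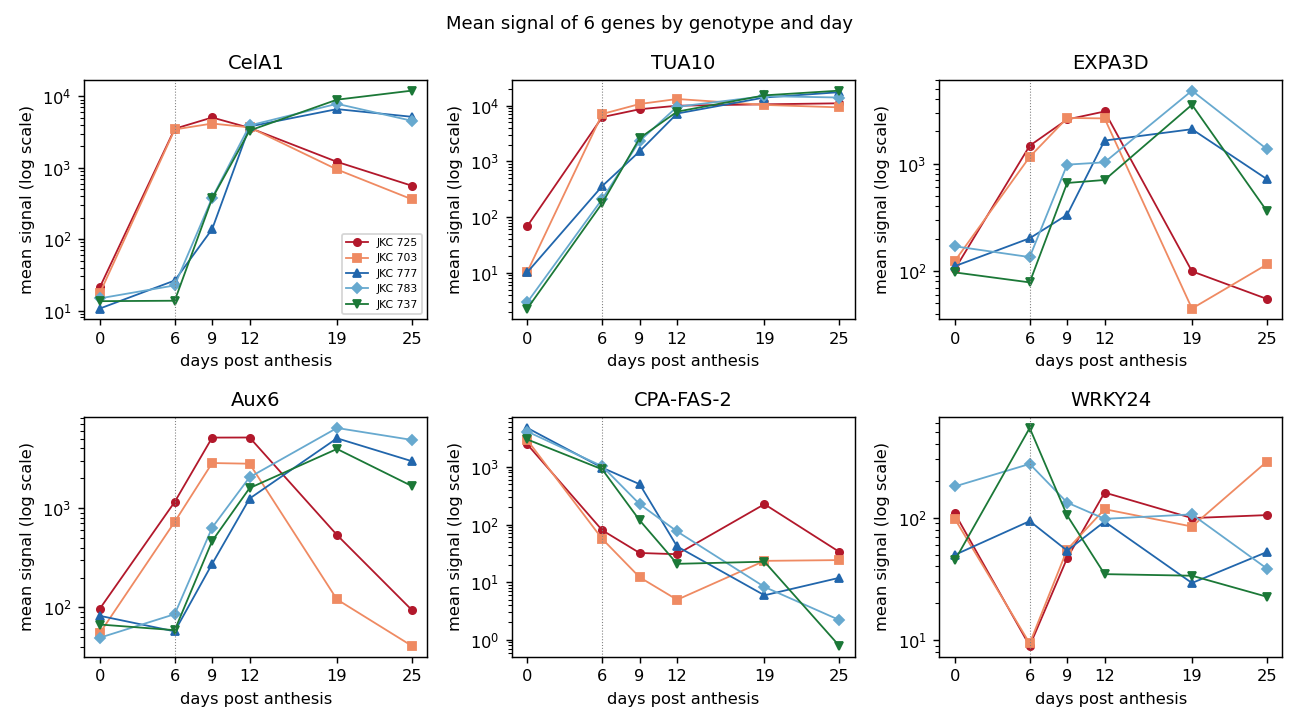
Mean MAS5 signal (log scale, 3 arrays, or 2 for JKC 783 at 25 dpa) of 6 genes by genotype against days post anthesis, with a dotted line at 6 dpa. CelA1 is at 3523 and 3442 in JKC 725 and 703 at 6 dpa and at 13.7 to 26.3 in the others, which reach 3329 to 3920 at 12 dpa.

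Within the sides fewer probe sets differed, and these contrasts do not use the division. JKC 725 minus JKC 703, a superior against an inferior genotype, had 322 calls (1.7%) with adjusted p under 0.05 and at least a doubling of the offset signal in either direction. Of these 154 (0.815%) were higher and 168 (0.889%) lower. The split moved with the scaling: quantile normalization gave 157 higher calls and 92 lower, and median centring 215 and 91. Nameable calls were 4 higher and 1 lower. Lox1, a lipoxygenase gene, was at 2480, 2521 and 2136 in JKC 725 and at 700, 927 and 1265 in JKC 703, without overlap, and differed by +1.34 ± 0.27 (adjusted p = 0.00107). CHS3 was at 1170, 1128 and 1460 against 398, 520 and 623, which is +1.29 ± 0.22 (adjusted p = 5.75e-05). CLP was at 169, 126 and 114 against 345, 368 and 263, a difference of -1.24 ± 0.24 (adjusted p = 0.000464). GHMYB10, a MYB factor gene, was higher by +2.05 ± 0.61 (adjusted p = 0.0494) and HB4, a homeobox gene, by +1.34 ± 0.40 (adjusted p = 0.0476). The GHMYB10 call was lost on leaving out any of the 6 arrays (adjusted p from 0.0529 to 0.279) and the HB4 call on leaving out 5 of them (0.0932 to 0.225).

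JKC 777 minus JKC 783 had 341 calls (1.81%), 206 higher (1.09%) and 135 lower (0.715%), and 2 of them were nameable. cdn1-C4, a delta-cadinene synthase gene of gossypol synthesis, was at 4648, 1907 and 2383 in JKC 777 and at 789, 686 and 131 in JKC 783. It differed by +2.72 ± 0.62 (adjusted p = 0.0046), and the call was lost without JKC 777 replicate 1 (adjusted p = 0.0622) or JKC 783 replicate 3 (adjusted p = 0.0849). FLA4 was at 5901, 4861 and 5598 against 1097, 1360 and 5926, so that 1 array of JKC 783 lay above all of JKC 777. The difference was +1.39 ± 0.27 (adjusted p = 0.000496), and +0.94 without the JKC 783 array at 1097. With the 15 arrays of 6 dpa alone setting the spread, the FLA4 call was lost (adjusted p = 0.074).

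JKC 777 minus JKC 737 had 254 calls (1.34%), 146 higher (0.773%) and 108 lower (0.572%), with 3 nameable, all higher. BTub1 was at 1605, 507 and 1296 in JKC 777 and at 418, 225 and 527 in JKC 737, which overlap, with +1.46 ± 0.35 (adjusted p = 0.00675). EXPA3D was at 204, 202 and 199 against 53.8, 52.7 and 128 (+1.44 ± 0.40, adjusted p = 0.029), and its other probe set was not called. XTH1 was at 3831, 1955 and 2606 against 989, 1174 and 1434 (+1.18 ± 0.33, adjusted p = 0.0343). Each of these 3 calls was lost on leaving out JKC 777 replicate 1, at adjusted p of 0.138, 0.0995 and 0.272. With the 15 arrays alone, the BTub1 call was lost at 0.124. JKC 783 minus JKC 737, 2 inferior genotypes, had 143 calls (0.757%), 86 higher (0.455%) and 57 lower (0.302%), with cdn1-C4 at -2.57 ± 0.62 (adjusted p = 0.0166) and FLA4 at -1.27 ± 0.27 (adjusted p = 0.00279) as the nameable ones. The cdn1-C4 call was lost at an adjusted p of 0.264 without JKC 783 replicate 3, at 0.103 and 0.107 without JKC 737 replicate 2 or 3, and at 0.0665 with no offset. The FLA4 call was lost at 0.162 and 0.118 without JKC 783 replicate 1 or 2, and at 0.208 with the 15 arrays alone.

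The classes of the labels were compared with genotypes as replicates, 2 superior against 3 inferior means. At 6 dpa 3 probe sets were called (0.0159%), and 203 had an unadjusted p under 0.05, which is 1.07%. All 3 were lower in the superior genotypes, and they are named because there were so few, after their values were seen. Gra.822.2.S1_x_at differed by -6.33 (adjusted p = 0.00837), with means of 4.99 and 6.49 in JKC 725 and 777 and of 861, 744 and 703 in JKC 703, 783 and 737. Ghi.5402.1.S1_x_at, listed as LOC107904077, differed by -4.78 (adjusted p = 0.0113) and GhiAffx.40402.1.A1_at by -3.49 (adjusted p = 0.0245). The superior minus inferior contrast differed between the sides in 531 probe sets (2.81%). No probe set with a readable gene name was called in the comparison of classes. On 3 nameable probe sets that were called in the F test, of NAC7, GHMYB38 and CLP, both superior means lay under all inferior ones, with class differences of -0.91, -0.82 and -0.77 (adjusted p = 0.999 for each). The NAC7 means, 12.4 to 38.7, all lay under 40.4, and its F call was lost with an offset of 32 and without JKC 725 replicate 3 (adjusted p = 0.06). The F call of GHMYB38 was lost with no offset, no filter, no intensity trend, quantile normalization and median centring (adjusted p from 0.0547 to 0.0716), and without JKC 725 replicate 3 at 0.273. Second probe sets of NAC7 and GHMYB38 did not keep this order, since JKC 725 lay above JKC 703 at means of 110.5 against 90.3 and 684 against 493.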

How the data were processed

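Labelled RNA of 89 samples was hybridised to the Affymetrix Cotton Genome array. The values are the authors' deposited signal intensity per probe set, on a linear scale, made with MAS5 per the submitters' processing notes. The deposited values hold no detection calls. The mean of each array after trimming 2% at each end was 500.1 to 500.2, so arrays had been scaled to one level. From these deposited intensities, log2(signal + 4.38) was computed, the added value being the 10th percentile of all signals. The 103 control probe sets were left out, as were 5140 whose mean was under 40.4 (the 40th percentile) in each of the 30 groups. One limma model (version 3.58.1, R 4.3.3) held the means of the 30 groups, with an intensity trend and Benjamini-Hochberg adjustment over 18889 probe sets. The classes were fitted on the 5 genotype means. The side difference weights genotypes equally, and its SE measures only the spread between replicate arrays. The script was tested on simulated data.

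Genes were named through the platform annotation and RefSeq (Gossypium_hirsutum_v2.1): 697 probe sets had 1 gene, 46 several and 23389 none, and 324 had a readable name. Named in the text are the 10 largest ranges, the 10 highest and 10 lowest side differences, up to 3 calls per pair and direction, up to 5 per direction that order the classes, up to 2 calls and the brightest member of each gene list, and 2 unnamed probe sets per direction. Other probe sets of a named gene or list were chosen after their values were seen. The samples, lists and named comparisons were chosen with earlier results of these data known. Alternatives were other offsets, scalings, filters and samples, a replicate block, and each array left out. No 2 arrays held identical values.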

Additional observations from a re-analysis of the deposited data

Results flagged for a closer look

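The superior genotype was compared with the inferior genotypes separately on each side, JKC 725 minus JKC 703 and JKC 777 minus the mean of JKC 783 and 737, and the difference between these 2 contrasts was tested with limma. It was called in 531 probe sets (2.81%), and in 2 of those named here. For CHS3 the contrast was +1.29 ± 0.22 in JKC 725 and +0.22 ± 0.19 in JKC 777, a difference of 1.07 ± 0.29 (adjusted p = 0.0278). Leaving out single arrays gave an adjusted p of up to 0.149, without JKC 777 replicate 2, and the 15 arrays of 6 dpa alone 0.0632. For HOX3 the contrast was -0.01 ± 0.18 in JKC 725 and +0.84 ± 0.16 in JKC 777, a difference of -0.85 ± 0.24 (adjusted p = 0.0334). Its signals were 2337, 1896 and 1988 in JKC 777, 1063, 957 and 1182 in JKC 783, 1183, 1162 and 1404 in JKC 737, and 1533 to 2072 in JKC 725 and 703. After median centring the HOX3 difference was -0.61 (adjusted p = 0.267), and its call was also lost without any of 8 single arrays, up to 0.137 without JKC 725 replicate 1.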

How the results depend on the processing

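The count of differences among genotypes ran from 4917 to 5454 on leaving out each array, and that of probe sets separating the sides from 1704 to 1910. The pair counts ran from 220 to 324 for JKC 725 minus 703, from 188 (without JKC 777 replicate 1) to 385 for JKC 777 minus 783, from 170 to 408 (without JKC 737 replicate 3) for JKC 777 minus 737, and from 88 (without JKC 737 replicate 3) to 143 for JKC 783 minus 737. The class count was 3 to 4 and the difference between the sides 356 to 792. With an offset of 32, JKC 777 minus 783 had 212 calls. Other settings moved no count by over 1.5 times. No single result changed direction, and 24 of 81 calls of named probe sets were lost in at least 1 setting; the cause was not tested. The labels do not tie equal replicate numbers together, and deviations of same-numbered arrays correlated at -0.134 to 0.286. With the replicate number as a block, the counts were 5313 for the F test, 319, 350, 259 and 127 for the pairs in the order above, and 548 for the difference between the sides; 8 of 15 arrays correlated best with their own number. Under the block the calls of FLA4 in JKC 777 minus 783 (adjusted p = 0.051) and JKC 783 minus 737 (0.162), BTub1 in JKC 777 minus 737 (0.0865), the F calls of NAC7 (0.0607) and Lea14-A (0.0522) and the CHS3 difference between the sides (0.0609) were over 0.05. Signals near 40.4 and below carry little information without detection calls.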

Other observations

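Some nameable genes outside the naming rule also separated the sides at 6 dpa; they were picked after their values were seen. ACX, listed under a symbol of acyl-CoA oxidase, which opens peroxisomal fatty acid oxidation, was at 850 to 1074 in JKC 725 and 703 and at 227 to 571 in the others on one of its probe sets (+1.27 ± 0.12). MFP, listed under a symbol of the multifunctional protein of the same pathway, was at 395 to 702 against 46.1 to 182 (+2.33 ± 0.17). BC1 was at 3087 to 4018 against 699 to 1643 (+1.82 ± 0.13). Glp1, a germin-like protein gene, was at 7407 to 10378 against 2976 to 7305 (+1.09 ± 0.17). A probe set listed as MPK3, a MAP kinase symbol, was at 1144 to 2063 against 468 to 1137 (+1.18 ± 0.14), while none of its 5 other tested probe sets was called.

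In the ovules of 0 dpa, 22.6% of the probe sets that were higher in JKC 725 and 703 at 6 dpa were already higher there by at least 1, against 3.34% of all tested probe sets, and 0.326% were lower by as much.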
